A study of Mus musculus and Rattus norvegicus with 96 samples.

Results

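The replication-dependent histone genes encode the bulk histones that package newly copied DNA. In the table of estimated counts from mouse liver, 69 of 24543 gene symbols had the form of these genes (Hist1h to Hist4h), and the 67 that had a count above 0 in at least 12 of the 48 libraries were taken as members. The other 2, Hist1h2aa and Hist1h2ba, had a count in 0 and 9 libraries. The members comprised 6 H1 (linker histone), 18 H2A, 18 H2B, 12 H3 and 13 H4 genes. Of these, 53 lay on chromosome 13, 10 on chromosome 3, 3 on chromosome 11 and 1 on chromosome 6 (GRCm38).

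The study asked how formalin changes RNA profiles of archived tissue. B6C3F1 male mice, 10 to 11 weeks of age, drank water with 600 ppm phenobarbital (PB), an inducer of liver drug metabolism, for 7 days, or water alone (Con), 6 mice each. Pieces of each liver went through 4 preparations, so there were 8 groups of 6 libraries. FR was frozen tissue. FR>OH was frozen, then placed in 70% ethanol and embedded in paraffin. FR>FFPE was frozen, then held for 18 to 24 h in neutral buffered formalin (10%) and embedded, and FFPE was placed fresh in the same fixative and embedded. RNA of FR came from RNAzol extraction and RNA of the embedded blocks from a kit for fixed tissue. Each comparison with FR was thus also one of extraction methods. By the paper, FFPE samples were also fragmented with heat for a shorter time when libraries were made. The effects of the block, the extraction and the fragmentation cannot be told apart. The libraries were made from ribosome-depleted total RNA with no selection for poly(A), so transcripts without a tail could be counted.

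In the nucleus, most mRNAs are cleaved and given a poly(A) tail, whereas replication-dependent histone mRNAs are cleaved just after a conserved stem-loop and carry none. The stem-loop binding protein SLBP holds this hairpin through cleavage, translation and decay, and the mRNAs are made mainly in S phase, when new chromatin is assembled. Some of these genes can also give longer, polyadenylated mRNAs, and most hepatocytes of an adult liver are not dividing.

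The hairpins are shown because they define this class of mRNA and set where most of its transcripts end. The search was for GGNNNNTTTN followed by the reverse complement of the first 6 bases, on the sense strand. In the transcripts of GENCODE M21 (GRCm38) with the same symbols, 44 of 67 members held such a hairpin past the stop codon, against 28 of 23819 other genes of the table (0.118%). Capitals mark the paired arms and lower case the loop. The 6 forms are given by 1 gene each.
Hist1h1c: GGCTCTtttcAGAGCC
Hist1h4c: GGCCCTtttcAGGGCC
Hist1h3e: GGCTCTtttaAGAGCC
Hist1h4b: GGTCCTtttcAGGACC
Hist2h4: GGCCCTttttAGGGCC
Hist2h2ac: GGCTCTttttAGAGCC

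The first form was held by 26 members, the second by 7, the third by 6, the fourth and the fifth by 2 each and the last by 1. They lay at chr13:23739512-23739527 (plus strand) in Hist1h1c, chr13:23698089-23698104 (minus) in Hist1h4c, chr13:23561903-23561918 (minus) in Hist1h3e, chr13:23757366-23757381 (plus) in Hist1h4b, chr3:96262939-96262954 (minus) in Hist2h4 and chr3:96220418-96220433 (minus) in Hist2h2ac. All 6 are in the 3′ UTR, 21 to 38 bases past the stop codon. In 39 members the span listed in the table of counts ended within 10 bases past the hairpin. The GENCODE transcripts could run further, as by 840 bases in Hist1h1c and 1257 in Hist2h4. The hairpin letters were not matched in the remaining 23, among them Hist1h2bc, Hist1h1a and Hist2h2be, which says only that these letters are not in those annotated transcripts. The polyadenylation signal AATAAA was in the last 40 bases of an annotated transcript of 15 members, Hist2h2be among them.

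Levels are given as CPM, the estimated count per 1000000 counts on genes of the same library. Summed over the members, FR Con libraries held 313 to 437 CPM (median 373). A few genes carried most of this: 8 members averaged at least 10 CPM over the 48 libraries and 28 averaged under 1 CPM. The most abundant were Hist1h2bc (75.7 CPM, an H2B gene), Hist1h1e (40.4 CPM) and Hist1h1c (22.1 CPM), both linker histones, Hist2h2aa1 (27.8 CPM, an H2A gene), and the H4 genes Hist1h4c (21.4 CPM), Hist1h4h (21.2 CPM), Hist1h4d (18.0 CPM) and Hist1h4n (11.5 CPM). With Hist1h3e (6.03 CPM), the most abundant H3 gene, they made up 71.7% of the members' CPM. By class, H2B held 30.4%, H4 28.7%, H1 22.4%, H2A 11.7% and H3 6.81%.

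Levels per kilobase depended on the length used. Per kilobase of the span listed in the table, Hist1h4c was at 56.8 CPM per kb, Hist1h1e at 51.6, Hist1h4d at 48.7, Hist1h4h at 48.6 and Hist1h1c at 30.5. Per kilobase of the GENCODE exons, which run past the hairpin in some of these genes, Hist1h4h was first among them at 45.1 CPM per kb, followed by Hist1h4c (26.1), Hist1h1e (20.9), Hist1h4d (15.8) and Hist1h1c (14.2). On both lengths Hist1h3e (12.8 and 7.21), Hist1h1a (3.77 and 3.8) and Hist2h2be (1.42 and 1.45) lay below them. Hist2h2aa1 and Hist1h4n are listed over spans that join separate places. Hist1h2bc is listed over 8283 bases, and its 1 annotated transcript is spliced, with 1156 bases of exon. None of them was put on the first scale. In all, 5 members had a spliced annotated transcript. Some histone genes are near-identical copies of others, while 4 members shared no 50-base word with another member. More than 50% of the 50-base words of 33 members recurred in another member, and reads shared by copies were split by estimation, so single members were uncertain within such groups. The counts were whole in every library for only 8 members, Hist1h1a, Hist1h1b, Hist1h1t, Hist2h2bb, Hist2h2be, Hist2h4, Hist3h2a and Hist4h4, and Hist1h2bq and Hist1h2br carried the same values in every library.

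The libraries held 4952797 to 13702672 counts on genes, 46.6% to 51.8% of all reads in FR but 21.4% to 27.5% in FFPE. The CPM values compare shares of gene counts, and on this scale the median gene tested was 0.32 higher on the log2 scale in FFPE than in FR, 0.34 higher in FR>FFPE and 0.18 higher in FR>OH. The liver identity was clear, with Alb, the gene of serum albumin, at 11798 to 67527 CPM. The 4 hepatocyte markers were all lower in FFPE than in FR (summed medians of 67831 CPM in FR Con and 28086 in FFPE Con), as were the 4 Kupffer cell markers (307.7 and 180.0 CPM), while the 4 endothelial markers summed to 278.7 and 317.4 CPM. Of the cholangiocyte markers, Krt19, Krt7 and Epcam had medians of 0.50, 0.31 and 0.56 CPM and Sox9 10.3 CPM. Of the blood and lymphocyte markers, Cd79a and Cd3e had medians of 0.17 and 0.19 CPM, Ptprc 17.5 CPM, Hbb-bs 65.9 CPM and Hba-a1 87.1 CPM. The part of these shifts in the histone results was not tested, and in bulk tissue fewer cells of a type and less RNA per cell cannot be told apart.

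Histone mRNAs made up less of the RNA in directly fixed liver than in the frozen piece of the same liver, in all 12 mice. The summed level was 209 to 219 CPM in FFPE Con (median 212) against the 313 to 437 CPM of FR Con. In PB mice it was 213 to 328 CPM (median 274) in FFPE and 372 to 575 CPM (median 461) in FR. The ranges of FFPE and FR did not overlap in either treatment. Within a mouse, the FFPE level had a median of 0.576 of the FR level, with a range of 0.502 to 0.691. Without the 9 most abundant genes named above, the median ratio was 0.540. Counted per total reads of the library instead of per count on genes, it was 0.296.

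**Figure D1:**
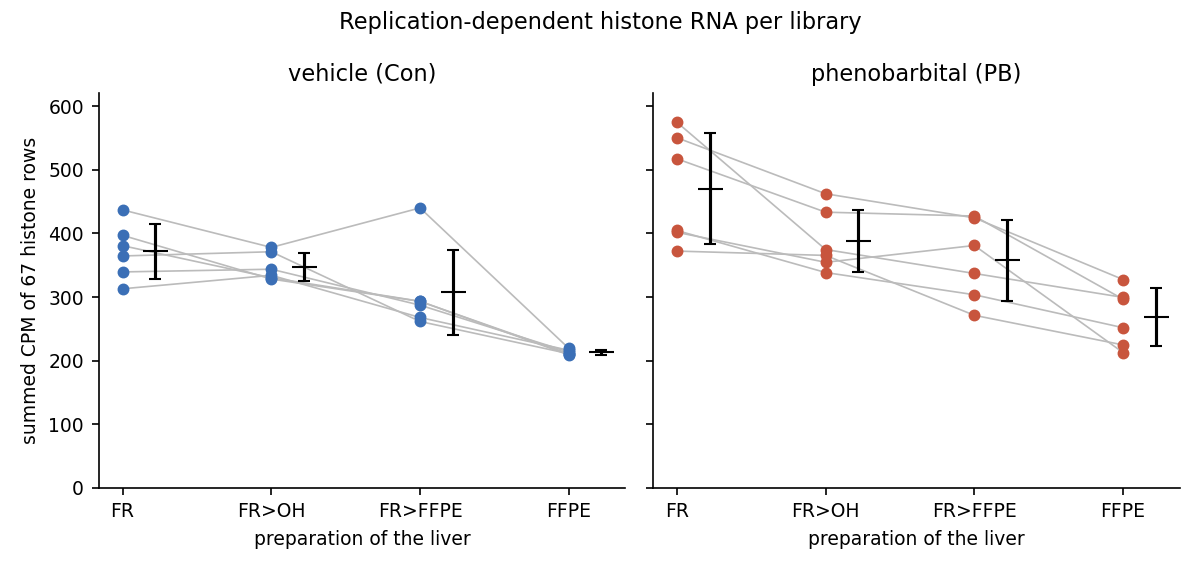
Summed CPM of the 67 histone genes (y axis) in each library of the 4 preparations (x axis), with Con and PB mice in separate panels. Lines join the libraries of a mouse, and the black marks are means with their SD (n = 6). The FFPE libraries lie at 209 to 219 CPM in Con and 213 to 328 CPM in PB, below all FR libraries of the same treatment.

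The other preparations lay between. The FR>FFPE sum was 262 to 440 CPM in Con (median 290) and 271 to 427 CPM in PB (median 359), and the FR>OH sum was 328 to 378 CPM (median 339) and 339 to 462 CPM (median 370). Within a mouse the median ratio to FR was 0.771 for FR>FFPE, lower in 11 of 12 mice, and 0.866 for FR>OH, lower in 9 of 12 mice. The classes kept different shares. For FFPE the median ratio to FR was 0.504 for H1, 0.534 for H4, 0.604 for H2A, 0.672 for H2B and 0.679 for H3, and for each class it was under 1 in 12 of 12 mice. For FR>OH it was 0.784 for H2B and 0.823 for H1, but 1.00 for H4, with H4 lower in 6 mice and higher in 6. These ratios share the FR libraries, and the differences between classes were not tested.

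Single genes were compared with edgeR's quasi-likelihood test, which was fitted over the 13370 genes with a geometric mean above 1 count. A gene was called at an adjusted p under 0.05 (Benjamini-Hochberg over all genes) in the contrast averaged over Con and PB. The filter kept 47 members and left out 20, whose medians in any group reached at most 1.73 CPM. In FFPE vs FR, 35 of the 47 were lower and 1 was higher, where 17.3% of all genes were called lower and 53% higher. The members' median log2 difference was −0.88 and that of all genes 0.32, and 44 of the 47 were below 0. With a filter that let all 67 members in, 41 were lower and 1 higher, where 14.9% of all genes were called lower. At the stricter rule of at least 2-fold in Con and in PB, 12 members were lower, against 1.28% of all genes.

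**Figure D2:**
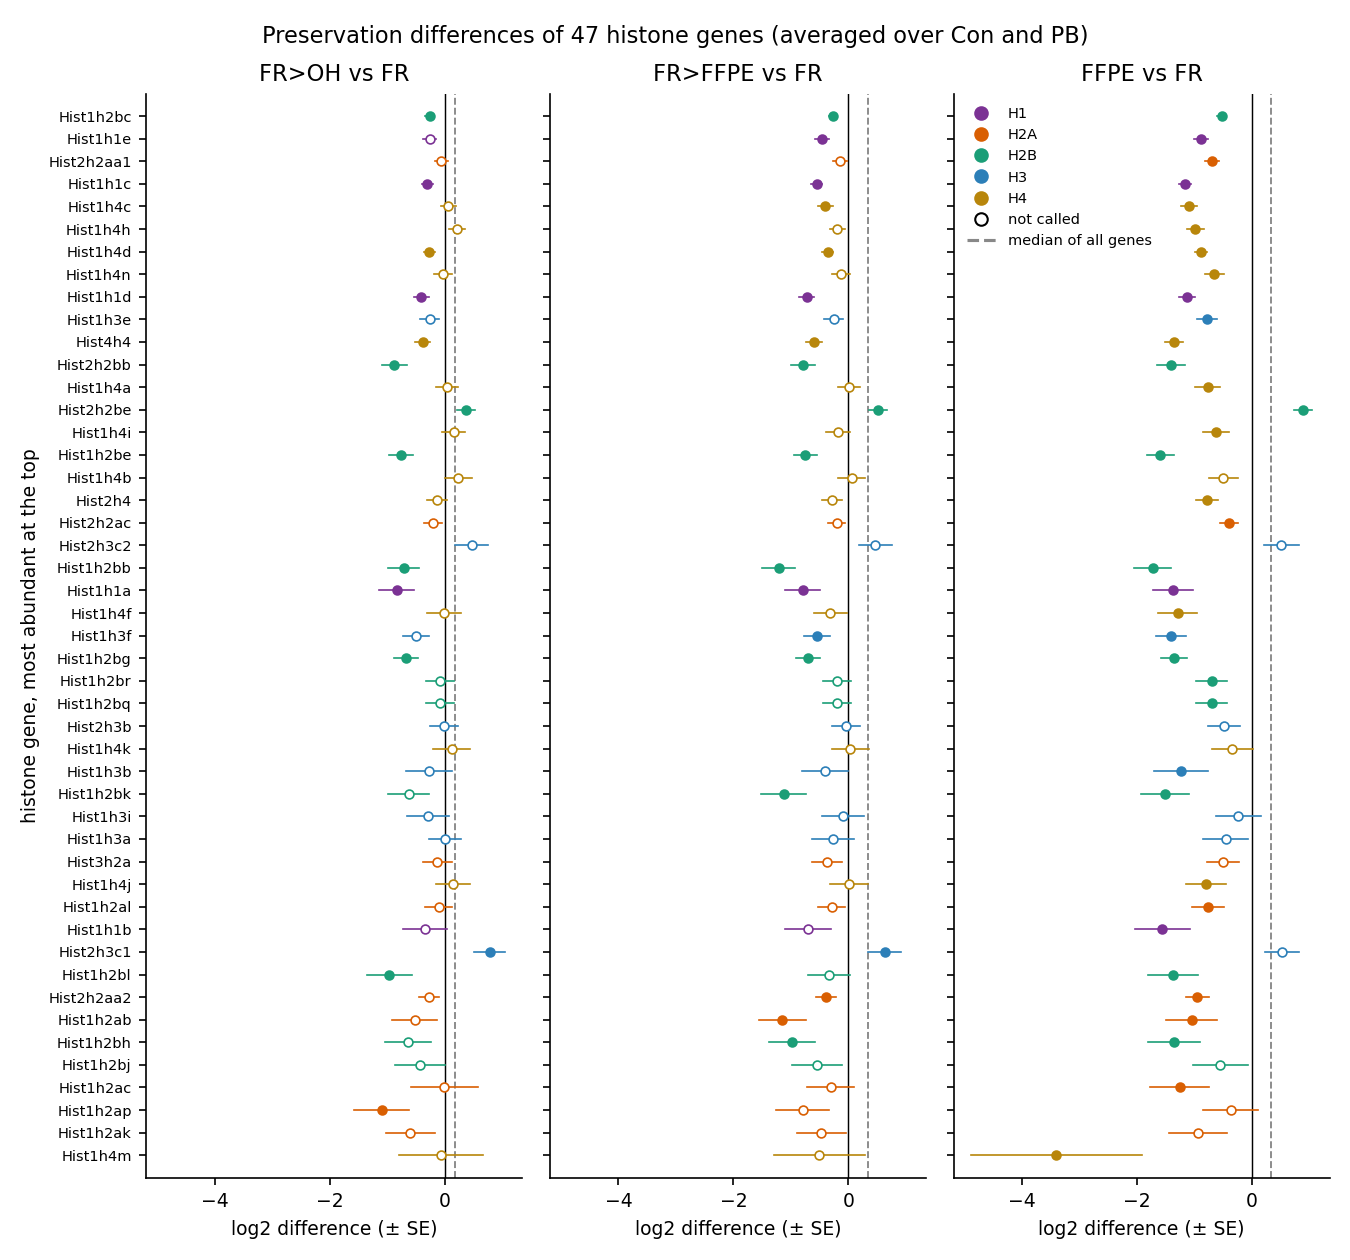
Log2 difference to FR (x axis, with its SE) of the 47 tested histone genes (y axis) in FR>OH, FR>FFPE and FFPE. Open points were not called, and the dashed line is the median of all 13370 genes. In FFPE, 35 genes were called lower and only Hist2h2be higher, a rise that turned negative when levels were taken per total reads.

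Of the linker histone genes, which bind DNA between nucleosomes, all 5 tested were lower in FFPE (median −1.16). Hist1h1c was 24.9 to 30 CPM in FR Con (median 27.7) and 26.4 to 40.1 CPM in FR PB (median 32), against 8.84 to 14.1 CPM in FFPE Con (median 12) and 11.1 to 18.8 CPM in FFPE PB (median 15.2). Every FFPE library lay below every FR library of its treatment. The log2 difference was −1.16 (SE 0.10, adjusted p = 8.8e-14), with 12 of 12 mice lower. In FR>FFPE, at 12.7 to 34 CPM in Con (median 19.8) and 18.9 to 27.6 CPM in PB (median 19.8), it was also lower (−0.55, adjusted p = 3.7e-06), as it was in FR>OH (20.8 to 29.3 CPM in Con, median 22.4, and 23.7 to 27.1 CPM in PB, median 24.3; −0.30, adjusted p = 0.0074).

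Hist1h1e was 36.8 to 63 CPM in FR Con (median 46.5) and 43.7 to 83.9 CPM in FR PB (median 48.8), and 20.4 to 30.6 CPM in FFPE Con (median 26.3) and 23.4 to 37.3 CPM in FFPE PB (median 29). The FFPE and FR ranges did not overlap in either treatment, and the log2 difference was −0.89 (SE 0.12, adjusted p = 1e-08). FR>FFPE (27.3 to 71.5 CPM in Con, median 30.3, and 30.5 to 44.6 CPM in PB, median 39.3) was lower than FR by −0.46 (adjusted p = 0.00064), while its ranges overlapped those of FR. FR>OH (36.1 to 49.7 CPM in Con, median 41.8, and 36.9 to 50.1 CPM in PB, median 43.9) differed from FR by −0.26 and was not called (adjusted p = 0.054). Hist1h1b, a linker histone gene of low level, was 0.86 to 1.34 CPM in FR Con and 0 to 0.592 CPM in FFPE Con, without overlap, and 0.638 to 6.55 CPM in FR PB and 0 to 2.33 CPM in FFPE PB, with overlap. It had a log2 difference of −1.56 (SE 0.48, adjusted p = 0.0038) and 11 of 12 mice lower.

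Of the H2B genes, 10 of 12 were lower and 1 was higher (median −1.35), and of the H2A genes 6 of 9 were lower (median −0.76). The products of both form the dimers at the outer faces of the nucleosome. Hist1h2bc was 75.2 to 99.5 CPM in FR Con (median 79.9) and 83.6 to 121 CPM in FR PB (median 95.3), and 53.6 to 65.2 CPM in FFPE Con (median 59.6) and 43.6 to 80.7 CPM in FFPE PB (median 67.8). The ranges did not overlap, but the difference of −0.53 (SE 0.077, adjusted p = 4.9e-08) was smaller than that of the other abundant members. It was 58.3 to 87.2 CPM in FR>OH Con (median 66.7), 71.7 to 97.6 CPM in FR>OH PB (median 76.9), 63.1 to 73.8 CPM in FR>FFPE Con (median 69.8) and 69.2 to 100 CPM in FR>FFPE PB (median 77.1). Both preparations were lower than FR, by −0.26 (adjusted p = 0.0033) and −0.27 (adjusted p = 0.0019).

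Hist2h2aa1 was 24.4 to 37.9 CPM in FR Con (median 32.8) and 23.5 to 48.7 CPM in FR PB (median 30.2), and 13.3 to 22.1 CPM in FFPE Con (median 18.1) and 17.9 to 24.6 CPM in FFPE PB (median 20.9). The ranges were apart in Con and overlapped in PB, and the difference was −0.70 (SE 0.12, adjusted p = 1.7e-06). In FR>FFPE (23.5 to 51.1 CPM in Con, median 26.5, and 18.3 to 32.5 CPM in PB, median 29.6) and in FR>OH (27.1 to 40.5 CPM, median 33.4, and 22.4 to 35 CPM, median 28.8) it overlapped FR and was not called (−0.15 and −0.06). Of the 5 largest falls among members of at least 1 CPM in FR or FFPE, 4 were in H2B genes. Hist1h2bb was 1.45 to 4.06 CPM in FR Con (median 3.45) and 0.203 to 2.22 CPM in FFPE Con (median 0.575), and 3.92 to 11.4 CPM in FR PB (median 5.17) and 0.686 to 3.71 CPM in FFPE PB (median 2). Its PB ranges did not overlap, its Con ranges did, and its difference was −1.73 (SE 0.32, adjusted p = 6.7e-06). Hist1h2be (−1.60, SE 0.23), Hist1h2bk (−1.52, SE 0.42) and Hist2h2bb (−1.41, SE 0.24) followed, with adjusted p of 6.5e-08, 0.0014 and 1.1e-06.

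Of the H4 genes, whose product pairs with H3 at the core of the nucleosome, 11 of 13 were lower in FFPE (median −0.80). Hist1h4c was 17.5 to 34.3 CPM in FR Con (median 23.8) and 23.1 to 42.1 CPM in FR PB (median 25.1), against 9.17 to 15.8 CPM in FFPE Con (median 11.6) and 6.19 to 20.9 CPM in FFPE PB (median 13.2). The ranges did not overlap in either treatment (−1.09, SE 0.14, adjusted p = 2e-09). It was lower in FR>FFPE (12.3 to 26.4 CPM in Con, median 17.4, and 16.8 to 26 CPM in PB, median 21.8; −0.40, adjusted p = 0.0059). In FR>OH it was 21 to 33.6 CPM in Con (median 27.8) and 22.8 to 30.7 CPM in PB (median 27.7) and was not called (0.06, adjusted p = 0.71).

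Hist1h4h showed a like order, with 17.3 to 35.4 CPM in FR Con (median 23.6), 16.7 to 36.5 CPM in FR PB (median 20.8), 6.65 to 17 CPM in FFPE Con (median 9.89) and 8.89 to 17.6 CPM in FFPE PB (median 14). The Con ranges were apart and the PB ranges overlapped (−0.98, SE 0.14, adjusted p = 5.2e-08). It was 26.1 to 34.7 CPM in FR>OH Con (median 31.1) and 17.6 to 28.2 CPM in FR>OH PB (median 26.5), above FR at the medians but not called (0.21, adjusted p = 0.17). In FR>FFPE it was 16.8 to 36.2 CPM in Con (median 19.5) and 14.2 to 23.6 CPM in PB (median 20), and it was not called (−0.19, adjusted p = 0.21). Both H4 genes were the members called lower in FR>FFPE than in FR>OH, by −0.47 (adjusted p = 0.0079) for Hist1h4c and −0.40 (adjusted p = 0.024) for Hist1h4h.

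Hist1h4d was 18 to 29 CPM in FR Con (median 20.7) and 19 to 32.4 CPM in FR PB (median 22.7), and 8.82 to 13.5 CPM in FFPE Con (median 10.7) and 11.7 to 16.4 CPM in FFPE PB (median 14). The ranges did not overlap (−0.88, SE 0.10, adjusted p = 1.5e-10). It was lower in FR>FFPE (12.6 to 25.6 CPM in Con, median 15.8, and 14.3 to 23.7 CPM in PB, median 19; −0.36, adjusted p = 0.0012) and in FR>OH (17.5 to 21.1 CPM, median 18.5, and 14.4 to 21 CPM, median 19.7; −0.27, adjusted p = 0.016). Hist1h4n was 8.23 to 16 CPM in FR Con (median 13) and 10.1 to 19.2 CPM in FR PB (median 13.1), and 5.74 to 12 CPM in FFPE Con (median 7.94) and 2.46 to 15 CPM in FFPE PB (median 8.08). Its ranges overlapped in both treatments, while the fall was called (−0.66, SE 0.17, adjusted p = 0.0006) and 12 of 12 mice were lower. With lane as a term, the difference was 0.24 and not called (adjusted p = 0.59). In FR>FFPE (6.12 to 12.6 CPM in Con, median 12.2, and 10 to 17.1 CPM in PB, median 12.3) and in FR>OH (9.58 to 20.9 CPM, median 12.5, and 7.59 to 17.5 CPM, median 11.8) it was not called (−0.13 and −0.03).

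The H3 genes, the partners of H4, had 3 of 8 lower in FFPE (median −0.47). Hist1h3e was 4.09 to 8.74 CPM in FR Con (median 6.81) and 6.81 to 11 CPM in FR PB (median 8.02), and 2.43 to 6.27 CPM in FFPE Con (median 4) and 1.36 to 6.18 CPM in FFPE PB (median 4.98). The ranges overlapped in Con and were apart in PB (−0.78, SE 0.18, adjusted p = 0.00013). In FR>FFPE (4.19 to 11.4 CPM in Con, median 5.08, and 5.42 to 7.47 CPM in PB, median 5.79) and FR>OH (5.49 to 7.22 CPM, median 5.84, and 3.54 to 8.39 CPM, median 6.44) it was not called (−0.25 and −0.26, adjusted p = 0.17 in both). The 11 members not called in FFPE had differences from −0.93 (Hist1h2ak) to 0.52 (Hist2h3c1). They also held 5 of the 8 H3 genes, Hist1h3a (−0.46), Hist1h3i (−0.24), Hist2h3b (−0.48), Hist2h3c1 and Hist2h3c2 (0.51), named after their values were seen.

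The exception was Hist2h2be, an H2B gene with a 2620-base annotated transcript that ends with AATAAA, in which no hairpin was matched. It was 1.9 to 3.52 CPM in FR Con (median 3.14), 3.07 to 4.76 CPM in FR>OH Con (median 3.76), 2.06 to 6.7 CPM in FR>FFPE Con (median 4.05) and 4.06 to 7.24 CPM in FFPE Con (median 5.75). In PB mice the medians were 2.56, 3.07, 3.68 and 4.17 CPM in the same order. FFPE lay above FR without overlap in Con, the PB ranges of 2.81 to 7.67 and 1.62 to 2.92 CPM overlapped, and 12 of 12 mice were higher. The difference of 0.89 (SE 0.16, adjusted p = 3.2e-06) was 0.57 above that of the median gene, but per total reads it was −0.067 and not called, so its direction rested on the scale. It was also called higher in FR>FFPE (0.52, adjusted p = 0.0033) and FR>OH (0.36, adjusted p = 0.046), as was Hist2h3c1 (0.63 and 0.78), named after its values were seen, and neither gene was called there per total reads or with TMM scaling, which sets the bulk of genes to no change.

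Sequence features that the choice of members did not use were set beside FFPE vs FR, as a description. Of the 33 tested members with a matched hairpin, 26 were lower (median −0.95), and of the 14 without a match 9 were lower and 1 was higher (median −0.73). Of the 11 with AATAAA near the end of a transcript, 8 were lower and 1 was higher (median −0.77). Members that shared under 50% of their 50-base words with others were lower in 22 of 25 cases (median −1.09, 1 higher) and those that shared more in 13 of 22 (median −0.70). The 7 tested members with whole counts throughout, in which no reads were split, held 5 falls and 1 rise (median −1.36). By place, 29 of 36 members on chromosome 13 were lower (median −0.96) and 5 of 9 on chromosome 3 were lower and 1 higher (median −0.48).

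In FR>FFPE vs FR, 17 of 47 members were lower and 2 were higher (median −0.34, that of all genes 0.34), where 8.93% of all genes were lower and 56.5% higher. With lane as a term the members' median was −0.81 in FR>FFPE and −0.62 in FFPE, so the order of these preparations rested on the fit. The lane shared by FR and FR>FFPE held only PB libraries of FR and Con libraries of FR>FFPE. The −0.81 thus leaned on the PB effect within FR, and the FR>FFPE PB libraries added nothing to it. With TMM scaling 28 members were lower and 0 higher, where 25.2% of all genes were lower. In FR>OH vs FR, 12 were lower and 2 higher (median −0.26, that of all genes 0.18), where 13.3% of all genes were lower and 41.7% higher, and with TMM scaling 17 were lower, where 26% of all genes were. At least 2-fold in Con and in PB, 1 member was lower in FR>FFPE and 0 in FR>OH, where 0.0224% and 0.0524% of all genes were. By class, H1 had 4 of 5 lower in FR>FFPE and 3 of 5 in FR>OH, and H2B 7 and 6 of 12, each with Hist2h2be higher. H2A had 2 and 1 of 9, H4 3 and 2 of 13, and H3 1 and 0 of 8, with 1 H3 gene lower in FR>OH at an unadjusted p under 0.05.

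The falls in both were led by H2A and H2B genes of low level. In FR>FFPE these were Hist1h2bb (−1.21), Hist1h2ab (−1.15), Hist1h2bk (−1.12) and Hist1h2bh (−0.98), and in FR>OH Hist1h2ap (−1.10) and Hist1h2bl (−0.96), some of them named after their values were seen. The 3 comparisons used the same FR libraries.

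FFPE and FR>FFPE had the same fixative, kit and kind of block and differed in freezing. FFPE pieces were fixed at collection, whereas FR>FFPE portions were cut from frozen liver and fixed later. FFPE and FR>FFPE also shared no sequencing lane, so lane, piece and freezing cannot be told apart. Between them 16 of 47 members were lower in FFPE and 0 higher (1 at an unadjusted p under 0.05), where 17.4% of all genes were lower and 11.8% higher. The members' median was −0.52 and that of all genes −0.02, and the summed level was lower in FFPE in 12 of 12 mice, with a median ratio of 0.758. All 9 abundant genes were among those that fell, with Hist1h4h at −0.79, Hist1h4c at −0.69, Hist1h1c at −0.61, Hist2h2aa1 at −0.55, Hist1h4d and Hist1h4n at −0.53, Hist1h3e at −0.52, Hist1h1e at −0.43 and Hist1h2bc at −0.26. With the mouse as a block, 26 were lower and 1 higher, where 24.7% and 18.9% of all genes were. FR>FFPE and FR>OH differed in the fixative, but within a treatment they shared no lane, so lane and fixative cannot be told apart. Between them 2 members were lower and 0 higher (0 also at an unadjusted p under 0.05), where 1.88% of all genes were lower and 20.4% higher. With the block there were 6 and 1, where 4.82% and 35.7% of all genes were.

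The libraries ran on 5 sequencing lanes, in an order close to that of the groups. FR>OH shared no lane with FR, so lane and preparation cannot be told apart there. On the only lane with both FR and FFPE libraries, the summed level was 372 and 402 CPM in FR PB mice 18B and 18D and 252 and 328 CPM in FFPE PB mice 75C and 80B. With lane as a term, 8 of 47 members were lower in FFPE than in FR (median −0.62, 36 below 0), where 9.63% of all genes were lower. These were Hist1h1c (−1.19), Hist1h1d (−0.70), Hist1h1e (−0.81), Hist1h2be (−1.80), Hist1h2bg (−1.57), Hist1h4b (−1.71), Hist1h4d (−0.76) and Hist4h4 (−1.70). In the same fit Hist1h2bc was at −0.26 (adjusted p = 0.22) and Hist1h4c at −0.87 (adjusted p = 0.055), and neither was called. For FR>FFPE vs FR with lane as a term, 7 members were lower (median −0.81, 44 below 0), where 2.48% of all genes were. That fit set FR>FFPE Con against FR PB on their shared lane, with treatment taken out by the PB effect within FR.

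A small group of histone genes of low level, and none of the 9 abundant ones, was higher in PB than in Con by edgeR, with fewer calls in FR and FR>OH by limma or with lane as a term. In FR, 8 of 47 members were higher in PB than in Con, where 5.85% of all genes were higher and 2.6% lower. The counts were 7 in FR>OH (8.41% of all genes higher, 3.78% lower), 1 in FR>FFPE (6.22% and 0.987%) and 2 in FFPE (4.64% and 1.98%). No member was lower in any preparation by edgeR, with 0 also at an unadjusted p under 0.05 and 0 by DESeq2 or limma, while 24, 12, 11 and 15 were higher at that level in FR, FR>OH, FR>FFPE and FFPE. The members' median log2 difference was 0.60, 0.31, 0.43 and 0.57 in that order. Of all 67 members the PB mean was above the Con mean in 62, 49, 54 and 56. In FR>FFPE and FFPE the share of members called was below that of all genes. By limma on the authors' log2 values, 0 members were higher in FR, 2 in FR>OH, 0 in FR>FFPE and 5 in FFPE, where 3.98%, 10.3%, 4.13% and 5.96% of all genes were. Before adjustment limma had 9 members higher in FR and 4 in FR>FFPE at p under 0.05.

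Treatment was also tied to lane. In FR>FFPE, Con and PB shared no lane and cannot be told apart from it. In FR all Con libraries but only 2 PB libraries were on 1 lane, in FFPE all Con and 4 PB libraries, and in FR>OH 3 Con and all PB libraries. With lane as a term in each preparation alone, a fit chosen after seeing the data, 0 members were higher in FR, where 1.81% of all genes were, 0 in FR>OH (2.01%) and 1 in FFPE, Hist2h3b (2.09%). At an unadjusted p under 0.05, 2, 12 and 9 were higher and 0 lower. The members' median was 0.22, 0.31 and 0.60.

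Hist1h1a, a linker histone gene that shares none of its 50-base words with other members, was the one called in all 4 preparations. In FR it was 1.49 to 2.62 CPM in Con (median 2.08) and 2.87 to 12.8 CPM in PB (median 5.06). In FR>OH it was 0.49 to 1.48 CPM (median 0.95) and 1.94 to 9.45 CPM (median 2.49), and in FR>FFPE 0.749 to 1.99 CPM (median 1.07) and 1.89 to 8.76 CPM (median 2.5). In FFPE it was 0 to 1.18 CPM (median 0.632) and 1.32 to 6.99 CPM (median 2.21). PB lay above Con without overlap in FR, FR>OH and FFPE, and the lowest PB library of FR>FFPE lay below the highest Con library. The log2 difference was 1.73 (SE 0.39, adjusted p = 0.0022) in FR, 2.02 (SE 0.45, adjusted p = 0.0015) in FR>OH, 1.72 (SE 0.45, adjusted p = 0.011) in FR>FFPE and 2.22 (SE 0.56, adjusted p = 0.0091) in FFPE, which are 3.31, 4.05, 3.3 and 4.65-fold. With lane as a term it was 1.10 (adjusted p = 0.20) in FR, 2.05 (adjusted p = 0.093) in FR>OH and 1.94 (adjusted p = 0.11) in FFPE, no longer called. On the lane that held all FR Con libraries, the PB mice 18B and 18D were at 4.44 and 4.23 CPM, above every Con mouse. These values rest on 36 to 175 counts in FR PB libraries and on 7 to 39 in FFPE PB libraries.

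**Figure D3:**
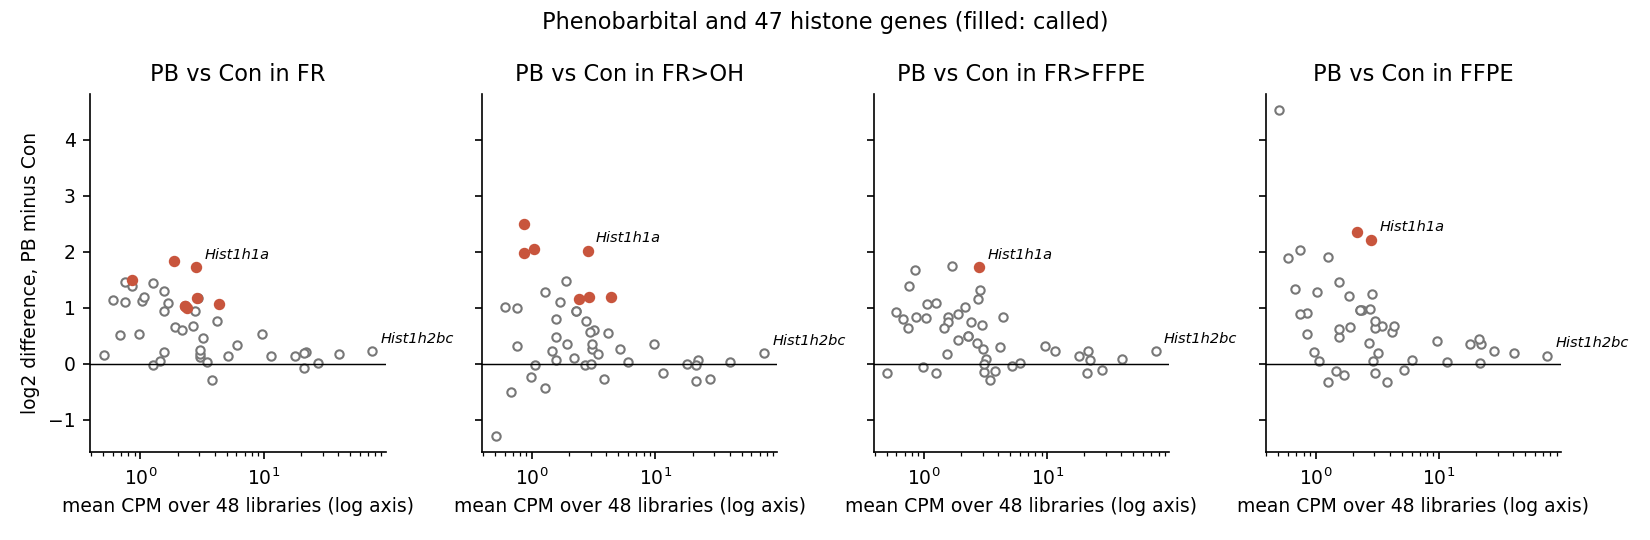
Log2 difference of PB to Con (y axis) against mean CPM over all libraries (log x axis) for the 47 tested histone genes in the 4 preparations, with called genes filled. The called genes have low levels, and the genes of 10 CPM or more were not called. The point at 4.54 in FFPE is Hist1h4m, at 0.506 CPM on average and not called.

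The other called genes were mostly of the H2B class. Hist2h2bb was higher in FR (1.08, SE 0.29, adjusted p = 0.01) and FR>OH (1.19, SE 0.32, adjusted p = 0.0098), with 0.84 and 0.68 in FR>FFPE and FFPE, not called. Hist1h2bb (1.18 and 1.19), Hist1h2bg (1.00 and 1.16) and Hist1h2bh (1.51 and 2.5) were higher in the same preparations. Called in FR and in no other preparation were Hist1h2bq and Hist1h2br, which cannot be told apart (1.03, adjusted p = 0.04), and the H3 gene Hist1h3b (1.84, adjusted p = 0.023). Called in FR>OH alone were Hist1h2bl (2.05) and Hist1h2ab (1.97), both at an adjusted p of 0.019. In FFPE the H3 gene Hist2h3b was 0.00303 to 1.21 CPM in Con (median 0.678) and 1.74 to 5.71 CPM in PB (median 3.06), a difference of 2.35 (SE 0.44, adjusted p = 0.00024; 2.28 with lane as a term, adjusted p = 0.023), while in FR it was 0.60 (adjusted p = 0.31).

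Whether the PB effect differed between a preparation and FR was tested as an interaction. By edgeR 0 members were called in FFPE, FR>FFPE or FR>OH, and 0% of all genes were, nor was any member by DESeq2 or limma, with 1, 0 and 2 members at an unadjusted p under 0.05. For Hist1h1a the interaction was 0.49 (SE 0.69) in FFPE and 0.29 in FR>OH, and for Hist2h3b in FFPE it was 1.75 (SE 0.56, unadjusted p = 0.0031). A count called in 1 preparation and not in another is therefore not shown to differ.

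The PB mice differed among themselves. Mice 20B and 80B had the highest and second highest Hist1h1a among PB mice in all 4 preparations: 12.8 and 10.1 CPM in FR (next 5.68), 9.45 and 5.87 in FR>OH (next 2.66), 8.76 and 5.32 in FR>FFPE (next 2.54), and 4.14 and 6.99 in FFPE (next 2.27). They were also highest in the sum of 24 genes of S phase and proliferation, with 342 and 326 CPM in FR (122 to 135 in Con) and 353 and 282 CPM in FFPE (110 to 147 in Con). Without mouse 20B or mouse 80B, 3 members were called higher in PB in FR, and 4 in FR>OH. In FR the count was also 3 without Con mouse 8D and 4 without Con mouse 82B or 90C, and it was 13 without PB mouse 18D. The fall in FR was thus not particular to mice 20B and 80B.

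**Figure D4:**
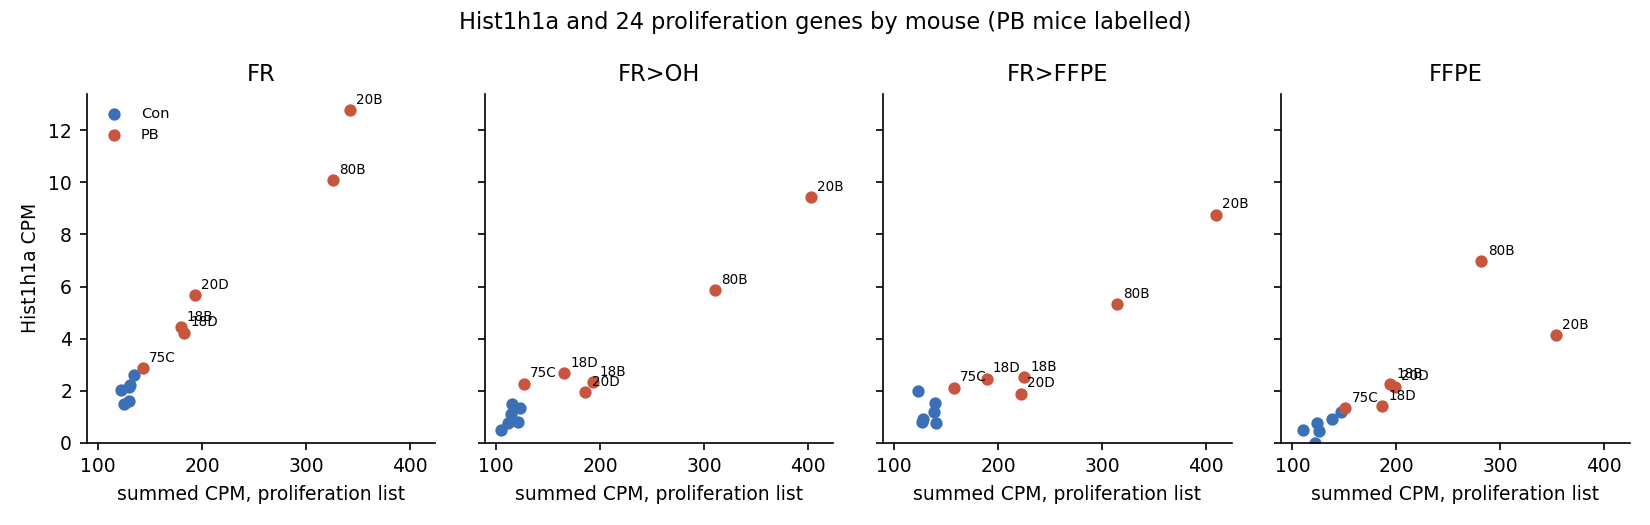
Hist1h1a CPM (y axis) against the summed CPM of 24 genes of S phase and proliferation (x axis) in each library, 1 panel for each preparation, with PB mice named. Mice 20B and 80B stand highest on both axes in all 4 panels.

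Other genes of the pathway were taken from lists by function, set with earlier results of these data known. Of the 24 genes of S phase and proliferation, 16, 19, 13 and 7 were higher in PB in FR, FR>OH, FR>FFPE and FFPE and 0 lower, with medians of 1.08, 1.13, 0.94 and 0.95. Of all genes 5.85%, 8.41%, 6.22% and 4.64% were higher in that order. Mki67, a marker of cycling cells chosen after its values were seen, was at 2.05, 2.38, 2.36 and 2.59. In FFPE vs FR the same list had 4 lower, among them Pcna, the sliding clamp of DNA polymerase (−1.04), and Ccne2, a cyclin of S phase entry (−0.53), and 4 higher, among them E2f1 (0.73) and Cdt1 (0.71), with a median of 0.00. Of all genes 17.3% were lower and 53% higher, with a median of 0.32.

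Of 13 tested genes for histone mRNA processing, 2 were lower in FFPE than in FR, Slbp (−0.37) and the cleavage factor gene Cpsf3 (−0.35), and 5 were higher, led by Sympk (1.01) and Lsm11 (0.86), both of the processing machinery (median 0.03). Of all genes 17.3% were lower and 53% higher (median 0.32), so the list did not rise more than other genes. In FR>FFPE 0 were lower and 7 higher (8.93% and 56.5% of all genes), and in FR>OH 2 and 4 (13.3% and 41.7%). In PB 0, 0, 2 and 1 of them were higher in FR, FR>OH, FR>FFPE and FFPE, where 5.85%, 8.41%, 6.22% and 4.64% of all genes were. Of 10 tested genes of replication-independent histones, most of which are polyadenylated and made also outside S phase, 5 were lower in FFPE, led by H3f3a (−1.15) and H2afz (−0.65). The 2 that were higher were H2afx (0.66) and H1f0 (0.45), and the median was −0.16. In FR>FFPE 2 were lower and 3 higher, and in FR>OH 3 and 4, beside the same shares of all genes as above. In PB 3, 3, 1 and 1 were higher, with 2 lower in FR>OH.

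TempO-Seq, which counts pairs of probes ligated on the RNA in place of cDNA reads, was run on AML12 cells, a mouse hepatocyte line of CD-1 origin, placed in formalin of 0.006%, 0.03% or 0.1% or in buffer for 10 minutes, 3 samples each. Histone genes held 8.75% to 12% of counts in the buffer samples, 8.04% to 12.2% at 0.006%, 9.43% to 10.5% at 0.03% and 5.48% to 6.55% at 0.1%, where the range lay below all others. Of the 65 members listed in these counts, 23 had a count of at least 1 in a library and 21 passed the filter. Which members had a probe of their own was not checked. At 0.1% 16 were lower and 0 higher (19 lower and 1, Hist1h2bc, higher at an unadjusted p under 0.05), where 8.6% of the 1570 genes tested were lower and 10.7% higher. Hist1h2be was at −1.86 (SE 0.36, adjusted p = 0.0022) and Hist1h2bg at −0.58 (SE 0.16, adjusted p = 0.018), both after edgeR with TMM scaling, while Hist1h2bc was at 0.39 (SE 0.17) and not called (adjusted p = 0.12). At 0.03% and 0.006% edgeR called 0 members, with 0 at an unadjusted p under 0.05 and 0 by DESeq2. Some members' counts kept a fixed ratio, as Hist1h2ac did to Hist1h2ag, so members were not separate measurements there.

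The same assay in rat tissue, F344 liver and WKY lung of males, was read only by gene symbol, and 5 of 34 histone genes were tested. All rat samples were labelled vehicle control. Here FR was assayed as RNA and fixed tissue as lysate, so input and fixation cannot be told apart. Histone genes held 0.0539% to 0.0768% of counts in FR liver and 0.232% to 0.398% in FFPE liver. These are shares of unscaled counts, whereas the log2 differences below are after TMM scaling and cannot be set beside them. The FFPE liver libraries held 139475 to 889128 counts, against 3040915 to 3970187 in FR. In liver 4 were higher in FFPE, Hist1h2bd (4.37), Hist1h2ail1 (2.82), Hist1h2bl (0.85) and Hist1h2bk (0.55), where 46.2% of all genes were higher. Hist2h3c2 was at 0.40 and not called. In FR liver libraries Hist1h2bd had only 3.06 to 6.07 counts and Hist1h2ail1 3.88 to 19.4. In FR>FFPE liver Hist1h2bd (1.52) and Hist2h3c2 (1.19) were higher, where 43.8% of all genes were, and Hist1h2bk (−0.63) was lower, where 27.5% were. In lung stored fixed for 1 year Hist1h2ail1 (2.90) and Hist1h2bd (2.21) were higher, where 45.6% of all genes were, and in FR>FFPE lung Hist1h2ail1 (1.65), Hist1h2bd (1.89) and Hist2h3c2 (1.93), where 45.8% were. These lung values come from a fit that kept an FR library of only 12 counts. In FR lung libraries Hist1h2bd had 0 to 14.3 counts and Hist1h2ail1 0 to 15.3. Each of these counts is of 5 genes, and the rat genes were named after their values were seen.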

How the data were processed

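Total RNA of 48 mouse liver libraries was depleted of ribosomal RNA (TruSeq Stranded Total RNA with Ribo-Zero Gold). The authors aligned reads to mm10 with STAR 2.5.3a and deposited estimated counts on RefSeq genes, made by expectation maximization in Partek, which splits reads between similar copies. They also deposited log2 CPM values of 13370 genes. For TempO-Seq the authors deposited counts per gene, some not whole (expected counts).

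Here counts were rounded and tested in edgeR 4.0.16 (R 4.3.3) with the column total as library size and 8 group means, and TempO-Seq with TMM scaling and filterByExpr, each table in its own fit. The steps were tested on simulated data. In the smallest library, of 4952797 counts, genes near 1 CPM rest on few counts. Alternatives changed the library size, filter, depth, test (DESeq2 1.42.0, limma 3.58.1), lane, mouse block and libraries. The limma fit used the authors' log2 CPM, which are per total reads, so it changed the scale together with the test. Mouse numbers pair the libraries, since each liver gave all 4 preparations. Deviations of the same mouse correlated at 0.43 to 0.84 (72 of 72 pairs over 0.1), and those of different mice at a median of −0.11. No 2 replicates agreed within sampling noise (lowest chi-square per degree of freedom 6.65). P-values in AML12 cells measure the spread between samples, which may be technical. All columns were mapped to samples, and 0 were left out.

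Named genes were the 8 of highest mean CPM and the highest of each class, the 5 largest falls and rises of FFPE vs FR among called members of at least 1 CPM on average in FR or FFPE, every member called for PB or in an interaction, every member that went against the majority in FFPE vs FR, and, of the other lists, the 2 largest falls and rises. Other genes were named after their values were seen. The members, lists and tests were chosen with earlier results of these data known. Hairpins came from GENCODE M21 transcripts, matched by symbol for 67 of 67 members, and figures were drawn with matplotlib 3.10.9 in Python 3.11.15.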

Additional observations from a re-analysis of the deposited data

Results flagged for a closer look

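Of 120 groups of 6 libraries examined (summed levels and the 9 abundant genes), 13 had a highest or lowest library that stood apart, with a gap to the next library that took more of the group's range than Dixon's critical value allows. Chance marks about 1 in 20 groups, and these measures share genes. The mouse 21C library of FR>FFPE Con stood highest 8 times: in the sum of all members (440 CPM, next 293), H1 (118 CPM, next 63.8), H2A (63.4 CPM, next 38.3), H4 (138 CPM, next 95.1), Hist1h1e (71.5 CPM, next 34.7), Hist2h2aa1 (51.1 CPM, next 28.3), Hist1h1c (34 CPM, next 20.3) and Hist1h4h (36.2 CPM, next 23.9). It had the fewest counts of its group, 5534973, and the part of this in its values was not tested. The mouse 20D library of FR PB stood highest in H4 (168 CPM, next 124) and Hist1h4c (42.1 CPM, next 27.9). The mouse 80B library of FR>OH PB stood highest in H2A (58.2 CPM, next 41.8), and the mouse 20B library of FR>FFPE PB in Hist1h1c (27.6 CPM, next 20.6). The mouse 90C library of FR>FFPE Con stood lowest in Hist1h4n (6.12 CPM, next 11).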

How the results depend on the processing

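The fall of the members in FFPE vs FR kept its median below 0 under the alternatives run, and its size depended on the scale and the lane. The members' median was −1.83 per total reads (all genes −0.63), −1.17 with TMM (0.04), −1.17 with DESeq2, −2.34 with limma (−0.69) and −0.62 with lane as a term. Members lower in FFPE vs FR, 35 of 47, were 8 with lane as a term and 12 at 2-fold. In FR>FFPE vs FR, 17 lower became 28 per total reads, with TMM and with DESeq2, 7 with lane and 1 at 2-fold. Of 13370 genes, 3913 were lower there per total reads, 3363 with TMM and 331 with lane. In FR>OH vs FR, 12 lower became 21 per total reads, where 5025 of 13370 genes were lower, and 0 at 2-fold. In FFPE vs FR>FFPE, 16 became 37 per total reads, 39 with limma and 0 at 2-fold. There 11011 of 13370 genes were lower per total reads and 11102 with limma, shares near those of the members. In FR>FFPE vs FR>OH, 2 became 4 with TMM (917 of 13370 genes), 5 with DESeq2 and 0 at 2-fold. Members higher in FFPE vs FR (1) were 0 per total reads, with limma, with lane and at 2-fold, and 2 after thinning. Those in FR>FFPE vs FR (2) were 0 per total reads, with TMM, DESeq2, limma, lane and at 2-fold, and 1 after thinning. Those in FR>OH vs FR (2) were 0 per total reads, with TMM, DESeq2, limma and at 2-fold, and 1 under both other filters and after thinning. Those in FFPE vs FR>FFPE (0) were 1 with TMM and DESeq2. For PB, the 8 called in FR were 0 with limma and 5 after thinning, the 7 in FR>OH 2 and 3, the 1 in FR>FFPE 0 with limma and 5 under both filters, and the 2 in FFPE 5 and 6. With lane as a term, added after seeing the data, they were 0 in FR, 0 in FR>OH and 1 in FFPE. Hist1h4n reversed in FFPE vs FR with lane as a term (0.24), as did Hist2h2be per total reads (−0.067) and with limma (−0.087). The cause of these changes was not tested, beyond the fewer libraries of the lane fits, the stricter rule of the 2-fold count and the per-read scale of the limma values.

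With the mouse as a block, which pairs the preparations, members lower were 26 in FFPE vs FR>FFPE and 6 in FR>FFPE vs FR>OH, and members higher 2 in FFPE vs FR, 1 in FFPE vs FR>FFPE, 1 in FR>FFPE vs FR>OH and 4 in FR>OH vs FR. The block changed no other count by over 1.5 times, and PB vs Con could not be fitted with it.

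Leaving out each mouse in turn gave, for members lower, 31 to 36 in FFPE vs FR, 14 to 19 in FR>FFPE vs FR, 10 to 13 in FR>OH vs FR, 11 to 17 in FFPE vs FR>FFPE and 1 to 5 in FR>FFPE vs FR>OH (1 without 18B, 8A or 8D, 4 without 21C, 5 without only its FR>FFPE library). Members higher were 1 to 1, 1 to 2 (1 without 18D, 20D, 21C, 75C, 82B or 8D, or 21C's FR>FFPE library), 0 to 2 (0 without 8A, 1 without 18B, 20B, 20D, 21C, 80B, 8C or 90C), 0 to 1 (1 without 8C) and 0 to 0. PB gave 3 to 13 in FR (3 without 20B, 80B or 8D, 4 without 82B or 90C, 5 without 21C, 13 without 18D), 4 to 9 in FR>OH (4 without 20B or 80B), 1 to 6 in FR>FFPE (6 without 75C, 2 without 18B, 18D, 21C, 8D or 21C's FR>FFPE library) and 1 to 3 in FFPE (1 without 80B), and 0 to 0 for members lower and for interactions. AML12 gave 14 to 16. Rat lung without the FR library of 12 counts gave 2, and rat liver 5 with total counts and with DESeq2 against 4, and lung 3 against 2. Genes near 1 CPM, which include most called for PB, are limited by depth.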
